A study of Mus musculus with 4 samples.

Results

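The RAB genes encode small GTPases that direct membrane traffic, and in mouse bone marrow leukaemia cells they were more often higher than lower when Ybx1 was deleted. The set was chosen by symbol: every row of the deposited expression table whose symbol is Rab followed by a digit. Symbols of interacting or regulating proteins, such as Rab11fip1, Rab3gap1 and Rab5if, and pseudogene symbols were left out. Of 68 such symbols 12 were dropped, which gave 56 members among 28141 genes. Of these, 55 encode a protein in GENCODE M21, and 1, Rab26os, is a non-coding transcript on the strand opposite Rab26. The libraries were made from polyadenylated RNA of leukaemia cells of C57BL/6 mice. The sample titles call the cells LSCs, and the series title speaks of leukaemia stem cells and chronic myeloid leukaemia. The groups were 2 wild-type (WT) libraries and 2 libraries whose label gives a conditional Ybx1 knockout (cKO). Ybx1 encodes a Y-box protein, which can bind both DNA and RNA. The sources used here do not give the Cre driver, the leukaemia-inducing oncogene or the age of the mice. Nor do they say if each library had its own animal. The p-values thus cover only the spread among these 4 libraries, and that spread may be technical.

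A RAB protein is a switch: bound to GTP it recruits effectors such as tethers, motors and lipid kinases to 1 kind of membrane, and bound to GDP it is extracted into the cytosol. Exchange factors (GEFs) load GTP, GTPase-activating proteins (GAPs) trigger its hydrolysis, and GDI proteins carry the inactive, prenylated form. In myeloid cells RAB proteins are known for their part in phagocytosis, in granule release and in the traffic of surface receptors.

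Levels are log2 values, obtained by multiplying the deposited log-scale values by 0.693. That factor was inferred from the noise between replicates, and if the deposited values were plain log2, each log2 fold change would be 1.44 times as large. Levels turned back to a linear scale, their sums and their shares would then change too. Differences are cKO minus WT with the standard error (SE) of limma, and a gene was called at a Benjamini-Hochberg adjusted p under 0.05 over the 15527 genes with enough signal to test. Because the table holds no counts, depth is unknown. In bulk RNA, fewer cells of a type and less RNA per cell cannot be told apart. Ybx1 itself read 9.31 and 9.41 in the WT pair of libraries against 8.19 and 8.13 in the cKO pair, 2.29-fold lower (limma adjusted p = 1.1e-11).

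Of the 56 members, 51 passed the filter on low values, and 22 of them rose and 2 fell in cKO. The rises were 43.1% of the tested members, where 19.5% of all tested genes were called higher, and the falls were 3.92%, where 17.8% of all tested genes were called lower. The median log2 fold change was 0.19 over the 51 members and 0.0025 over all genes tested. Both cKO libraries lay above both WT libraries for 30 members and below them for 6, against 32.7% and 32.4% of all tested genes. The remaining 27 tested members did not pass, 16 with a positive and 11 with a negative difference. Among those 27, 19 had a mean log2 level under 7. The median SE of the 27 was 0.29, against 0.05 for the members that rose.

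Most of the rises were small. The 22 log2 fold changes ran from 0.10 for Rab6a to 0.77 for Rab5c, and 3 of the genes, Rab5c, Rab1a and Rab5b, rose at least 1.5-fold. If the scores were plain log2, the range would be 0.15 to 1.11. Rab11a (0.79), Rab27a (0.63), Rab27b (0.61) and Rab4b (0.61) would then exceed 1.5-fold too. The cKO libraries had a larger sum of back-transformed levels than the WT libraries, and scaling all libraries to the same sum, a choice added once the data had been seen, lowered the median of all genes by 0.12. On that scale 13 members rose and 5 fell, where 13.7% of all genes were higher and 26.1% lower. The differences of Rab6a and Rab11b then turned negative, at -0.02 and -0.0078. Of the 24 calls, 14 held under equal sums, under quantile normalization and under a median shift. These were Rab38, which fell, and the rises of Rab1a, Rab1b, Rab2a, Rab3d, Rab5b, Rab5c, Rab7, Rab8a, Rab10, Rab11a, Rab27a, Rab27b and Rab32. When the variance prior was not allowed to vary with the level, limma called 4 members, the rises of Rab1a, Rab5b, Rab5c and Rab11a (adjusted p from 0.032 to 0.036), and all other calls were lost.

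**Figure D1:**
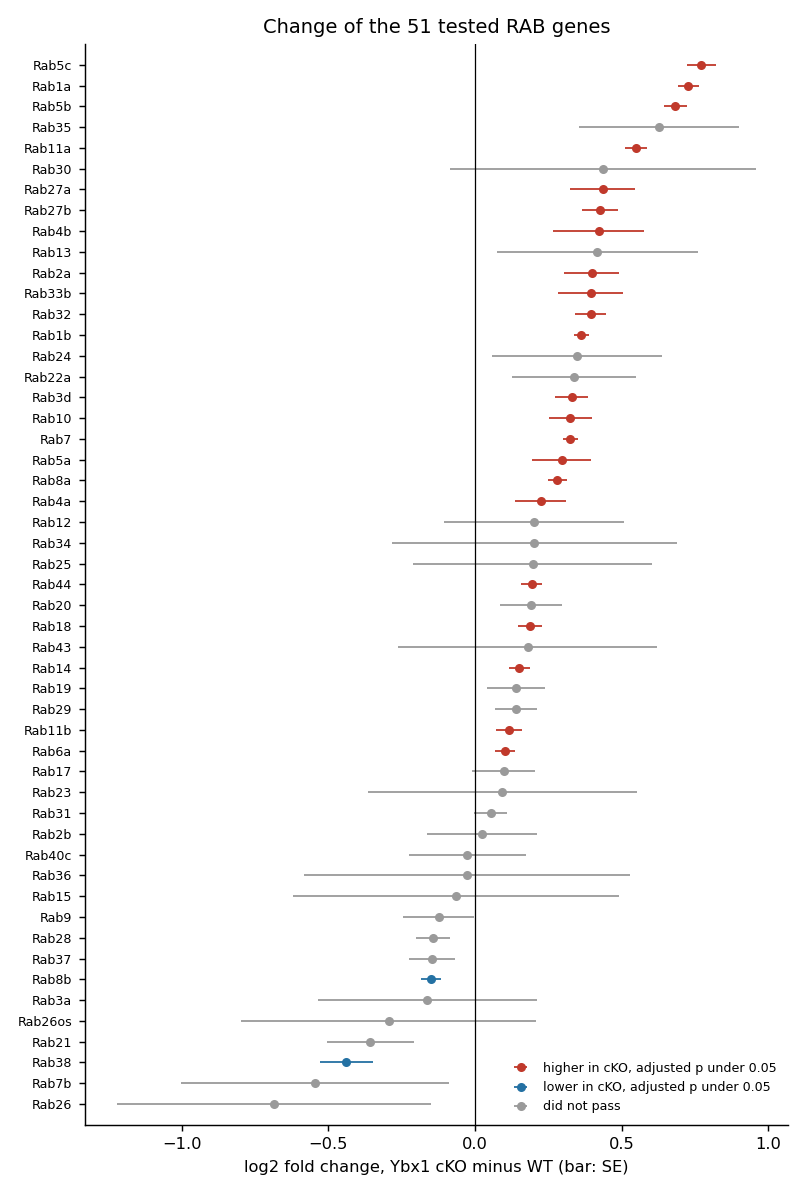
Log2 fold change (x axis, Ybx1 cKO minus WT, bar: SE) of each of the 51 tested RAB genes (y axis, ordered by the difference), coloured by the limma call. The 22 red points lie to the right of 0, from 0.10 to 0.77, and the 2 blue points are Rab8b and Rab38. With equal library sums Rab6a and Rab11b cross to the left of 0.

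Called members were mostly well-expressed genes, and the share of calls over all genes rose with the level too. At a mean log2 level of 10 or more, 14 of 16 RAB genes rose and 1 fell, where 48.7% of all genes at that level were called higher and 27.5% lower. From 7 to under 10, 7 of 15 rose and 1 fell, against 25.7% higher and 28.6% lower. Under 7, 1 of 20 rose, against 7.25% higher and 8.34% lower. The median log2 fold change of the RAB genes in these bands was 0.30, 0.19 and 0.14, and that of all genes was 0.10, -0.02 and -0.02. Over the 51 members Spearman's rank correlation between level and difference was 0.28, a description only, since all members were measured in the same libraries.

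**Figure D2:**
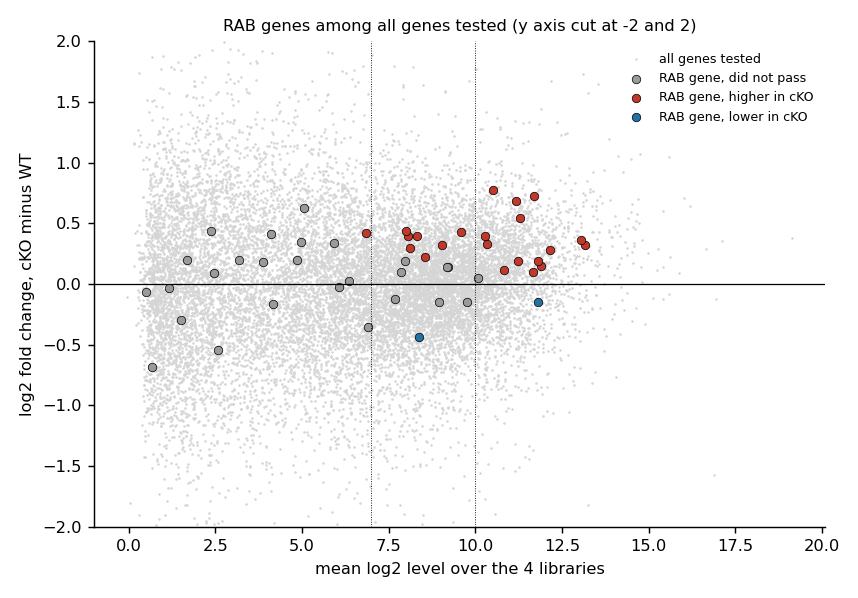
Log2 fold change (y axis, cKO minus WT) against mean log2 level over the 4 libraries (x axis) for all 15527 tested genes (grey dots) and the 51 RAB genes (large points). Dotted lines mark log2 levels of 7 and 10; to the right of 10, 14 of 16 RAB genes are red, and Rab6a and Rab11b among them lie below 0 when library sums are made equal.

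A few members held a large share of the RAB RNA. In parts per 1000000 of the library sum (ppm) and per kilobase of exon, Rab1b was the highest member, at 297 in WT and 350 in cKO, and Rab7 was next at 286 and 328. Together they held 39.4% of the summed per-length level of the protein-coding members in WT and 40.3% in cKO. Rab8a, Rab6a and Rab8b followed, with Rab8a at 79.5 and Rab8b at 72.6 in WT, and 20 of the 56 members lay under 1. The summed per-length level of the 55 protein-coding members came to 1479 and 1484 ppm per kilobase in WT and to 1698 and 1671 in cKO. That is 13.7% higher in cKO, and the groups did not overlap, although an exact permutation test of 2 against 2 libraries cannot give a two-sided p under 0.333. This scale already sets library sums equal.

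**Figure D3:**
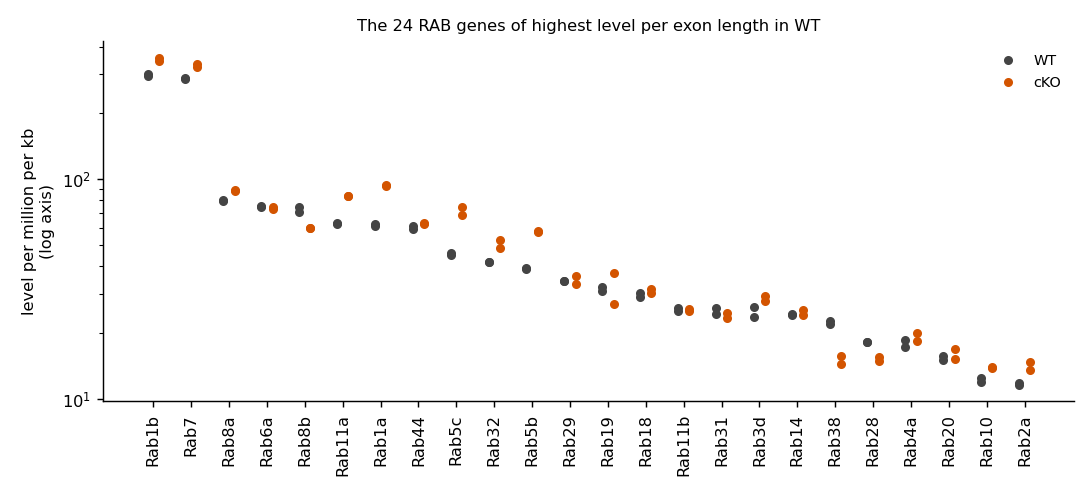
Level in ppm of the library sum per kilobase of exon (y axis, log scale) of the 24 RAB genes with the highest WT level (x axis, ordered by it), 1 point per library. Rab1b and Rab7 stand above all others, the cKO points of Rab1a, Rab5b, Rab5c and Rab11a lie clear of the WT points, and for the called Rab8b and Rab38 they lie below them.

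The upstream sequences of the 4 members with the largest called rises and of the Rab8 pair, which moved in opposite directions, are shown because Y-box proteins take their name from the Y box, a promoter element with an inverted CCAAT core. Each is the 250 bases before the RefSeq start on GRCm38.p6, 5′ to 3′ on the gene's strand. Capitals mark CCAAT, or ATTGG where it lies on the other strand.
Rab5c, chr11:100738216-100738465, minus strand: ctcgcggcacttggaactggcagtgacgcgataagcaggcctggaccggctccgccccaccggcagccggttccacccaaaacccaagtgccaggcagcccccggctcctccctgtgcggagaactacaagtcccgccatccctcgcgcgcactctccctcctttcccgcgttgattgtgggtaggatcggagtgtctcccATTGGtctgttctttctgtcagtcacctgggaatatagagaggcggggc
Rab1a, chr11:20201162-20201411, plus strand: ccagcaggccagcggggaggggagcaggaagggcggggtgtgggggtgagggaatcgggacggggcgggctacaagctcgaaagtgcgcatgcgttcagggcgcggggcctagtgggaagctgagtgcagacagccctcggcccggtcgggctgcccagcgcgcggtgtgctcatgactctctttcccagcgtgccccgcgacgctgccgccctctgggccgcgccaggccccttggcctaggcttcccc
Rab5b, chr10:128696269-128696518, minus strand: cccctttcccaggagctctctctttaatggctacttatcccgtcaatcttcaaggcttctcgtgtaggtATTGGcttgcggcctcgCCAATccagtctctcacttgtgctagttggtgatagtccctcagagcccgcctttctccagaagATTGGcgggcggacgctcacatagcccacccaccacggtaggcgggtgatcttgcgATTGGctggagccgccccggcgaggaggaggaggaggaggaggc
Rab11a, chr9:64737757-64738006, minus strand: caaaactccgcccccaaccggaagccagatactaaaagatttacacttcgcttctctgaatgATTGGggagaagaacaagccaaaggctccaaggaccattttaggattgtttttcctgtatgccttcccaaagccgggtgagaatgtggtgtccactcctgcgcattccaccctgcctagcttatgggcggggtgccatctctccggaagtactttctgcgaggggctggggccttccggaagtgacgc
Rab8a, chr8:72160950-72161199, plus strand: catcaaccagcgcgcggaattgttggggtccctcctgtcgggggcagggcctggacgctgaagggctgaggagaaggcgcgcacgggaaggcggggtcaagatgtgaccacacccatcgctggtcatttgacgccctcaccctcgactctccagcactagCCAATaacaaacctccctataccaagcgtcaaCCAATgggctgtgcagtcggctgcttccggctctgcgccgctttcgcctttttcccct
Rab8b, chr9:66919706-66919955, minus strand: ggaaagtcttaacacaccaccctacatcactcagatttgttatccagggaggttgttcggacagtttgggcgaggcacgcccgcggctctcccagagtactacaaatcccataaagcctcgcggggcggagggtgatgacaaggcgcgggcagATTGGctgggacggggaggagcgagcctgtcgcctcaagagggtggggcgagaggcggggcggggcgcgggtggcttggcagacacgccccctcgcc
The window of Rab5b held 4 such matches, that of Rab8a 2, and those of Rab5c, Rab11a and Rab8b 1 each. No match was found for Rab1a, which says only that these letters are not in this window. RefSeq windows were found for 45 of the 56 members, 57 windows in all. The members without an entry were Rab2a, Rab4a, Rab7b, Rab18, Rab26, Rab27b, Rab30, Rab36, Rab37, Rab38 and Rab44. CCAAT or ATTGG, which can overlap by 2 bases, was present in 23 of the 57 windows (40.4%), against 33.8% of all 32851 windows and 35.2% of the windows of tested genes. It was present in 12 of the 19 windows of the 17 matched genes that rose and in 11 of the other 38. Some genes had several windows, so a count of windows is not a count of genes. Rab15 and Rab43, both among the others, had several windows each, all without a match. Those others also include the fall Rab8b, the non-coding Rab26os and genes below the filter, such as Rab3c. The share over all genes called higher was not counted, and the split was not tested. The E box CACGTG, the same on both strands, was in 5 of 57 (8.77%, against 6.02% of all windows and 7.85% of those of tested genes). The GC box GGGCGG or CCGCCC was in 37 (64.9%, against 32.7% and 53.5%), and the TATA motif TATAAA or TTTATA in 3 (5.26%, against 12.4% and 6.95%). The median GC content was 60% for the RAB windows and 52.4% for all. These are descriptions of letters, not of binding.

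Among the RAB genes of the endoplasmic reticulum and Golgi, 6 of 12 tested members rose (50%), and the other 6 did not pass. Of all tested genes 19.5% were called higher and 17.8% lower. With equal library sums 3 of the 12 rose and 0 fell, where 13.7% of all genes were higher and 26.1% lower. Rab1a and Rab1b drive transport from the endoplasmic reticulum to the Golgi and the start of autophagy. For Rab1a (ENSMUSG00000020149.17, chr11:20201432-20226856, GRCm38) the WT libraries read 11.37 and 11.32 and the cKO libraries 12.08 and 12.07, a 1.66-fold rise (log2 fold change 0.73, SE 0.04, limma adjusted p = 2.3e-14). Both cKO libraries were well above both WT libraries. Rab1b (ENSMUSG00000024870.6, chr19:5099205-5107072) read 12.86, 12.89, 13.26 and 13.21 in the same order, a smaller rise of 0.36 (SE 0.03, limma adjusted p = 5.1e-11), again without overlap. Rab1a lay below Rab1b by 1.49 and 1.57 log2 units in the WT libraries and by 1.18 and 1.15 in the cKO libraries, so the gap was narrower in both cKO libraries. Rab2a, which acts on the same early secretory route, rose by 0.40 and Rab33b, a partner of autophagy proteins, by 0.39. Rab18, linked to lipid droplets and the endoplasmic reticulum, rose by 0.19 and Rab6a, which directs retrograde traffic through the Golgi, by 0.10, but both calls were lost with quantile normalization and with equal sums. The call of Rab6a was also lost in every fit that left out 1 library, save that without cKO replicate 2 (limma adjusted p from 0.069 to 0.16). Rab33b was lost without WT replicate 1 (limma adjusted p = 0.18) and with equal sums (limma adjusted p = 0.055). Rab6a shares 19.0% of its exon bases with Mrpl48 on the other strand, and Rab33b shares 18.7% with Gm38160. Rab2b, Rab19, Rab30, Rab34, Rab36 and Rab43 had differences from -0.03 to 0.44 and did not pass, and Rab6b and Rab33a lay below the filter.

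All 3 Rab5 genes rose. RAB5 proteins organise the early endosome, where internalised receptors are sorted, and recruit the lipid kinase PIK3C3. Rab5c (ENSMUSG00000019173.11, chr11:100715009-100738215) read 10.11 and 10.13 in WT against 10.95 and 10.84 in cKO, a 1.71-fold rise (log2 fold change 0.77, SE 0.05, limma adjusted p = 5.4e-12). Rab5b (ENSMUSG00000000711.3, chr10:128677175-128696264) read 10.83 and 10.84 against 11.51 and 11.52, a 1.61-fold rise (log2 fold change 0.68, SE 0.04, limma adjusted p = 6.8e-13). In neither gene did the groups overlap. Rab5a (ENSMUSG00000017831.8, chr17:53479234-53507680), the most studied of the 3, was the lowest, at 8.04 and 7.91 in WT and 8.19 and 8.35 in cKO. Its rise of 0.29 (SE 0.10, limma adjusted p = 0.025) did not hold when WT replicate 2 (adjusted p = 0.20) or cKO replicate 2 (adjusted p = 0.16) was left out, or with equal sums (adjusted p = 0.20). Rab5c exceeded Rab5a by 2.07 and 2.21 log2 units in WT and by 2.76 and 2.48 in cKO. In this group 3 of 8 tested members rose (37.5%) and 0 fell, against 19.5% and 17.8% of all tested genes. With equal library sums 2 rose and 1 fell, where 13.7% of all genes were higher and 26.1% lower. On the main scale the other 5 members of this group did not pass. Rab21, which guides integrin traffic, had the only negative difference among them (-0.36, SE 0.15, limma adjusted p = 0.064), with both cKO libraries below both WT libraries. Rab22a, Rab20, Rab17 and Rab31 lay between 0.05 and 0.34.

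RAB genes of recycling endosomes and of delivery to the cell surface counted 7 rises and 1 fall among 13 tested members. These are 53.8% and 7.69%, against 19.5% and 17.8% of all tested genes. With equal library sums 3 rose and 1 fell, where 13.7% of all genes were higher and 26.1% lower. Rab11a (ENSMUSG00000004771.12, chr9:64715299-64737758), which marks the recycling endosome, read 11.02 in both WT libraries and 11.57 in both cKO libraries, a 1.46-fold rise (log2 fold change 0.55, SE 0.04, limma adjusted p = 2.2e-11). Its close relative Rab11b (ENSMUSG00000077450.13, chr17:33742484-33760530) read 10.75 and 10.78 in WT against 10.86 and 10.90 in cKO. That difference of 0.12 (SE 0.04, limma adjusted p = 0.039) did not overlap between groups but lost its call when any library other than cKO replicate 1 was left out (adjusted p from 0.094 to 0.21), and with quantile normalization. The excess of Rab11a over Rab11b was 0.27 and 0.24 in WT and 0.71 and 0.67 in cKO.

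The Rab8 genes moved apart; they are given in full after their values were seen. RAB8 proteins carry vesicles from the Golgi and recycling endosomes to the plasma membrane and to cilia. Rab8a read 12.03 and 12.00 in WT against 12.28 and 12.30 in cKO, a rise of 0.28 (SE 0.03, limma adjusted p = 8.6e-08). Rab8b read 11.87 and 11.93 in WT against 11.75 in both cKO libraries (log2 fold change -0.15, SE 0.03, limma adjusted p = 0.0012), a call lost with a median shift (adjusted p = 0.052). Within each library, Rab8a exceeded Rab8b by 0.16 and 0.07 in WT and by 0.53 and 0.55 in cKO. A shift of a whole library leaves this difference unchanged, but quantile normalization or another reading of the scores can change it. The groups did not overlap, and with 4 libraries no exact test of this single difference can pass. Of the other recycling members, Rab10, Rab14, Rab4a and Rab4b rose by 0.15 to 0.42. Rab10 serves exocytosis, Rab14 links the Golgi to endosomes, and the Rab4 pair serves fast recycling. Rab14 lost its call with quantile normalization and equal sums, and Rab4a and Rab4b were each lost in 3 of 4 fits that left out 1 library (limma adjusted p from 0.073 to 0.27 for Rab4a and from 0.051 to 0.29 for Rab4b). Rab4a held only in the fit without cKO replicate 1, and Rab4b only in the fit without WT replicate 1; neither call held with equal sums. Rab4b also shares 65.0% of its exon bases with the gene model Gm21983. Rab35 had a difference of 0.63 but a large SE of 0.27 (limma adjusted p = 0.078), and Rab12, Rab13, Rab15 and Rab25 did not pass either.

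**Figure D4:**
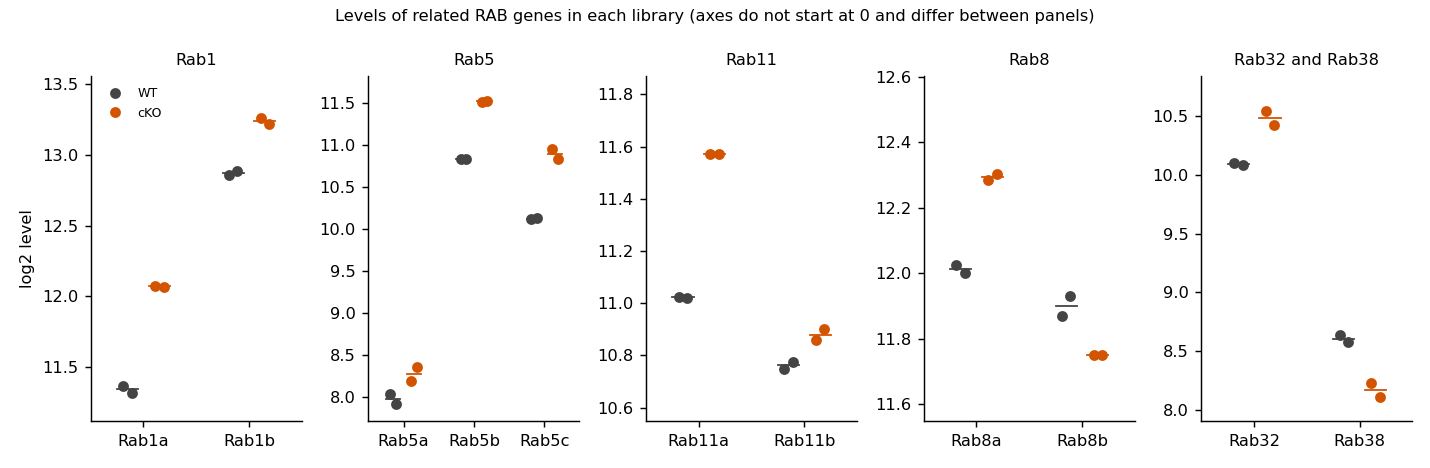
Log2 level (y axis, a separate range per panel) of related RAB genes in each library: 2 WT points and 2 cKO points per gene, with a line at each group mean. Rab1a, Rab5b, Rab5c and Rab11a rise by 0.55 to 0.77, more than Rab1b, Rab5a and Rab11b, and the Rab8 and the Rab32 and Rab38 pairs move in opposite directions. Rab11b turns negative with equal library sums.

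Rab7, the RAB of late endosomes and lysosomes, was the only called member of 5 in its group. Its log2 level averaged 13.02 ± 0.02 in the WT libraries (SD, n = 2) and 13.34 ± 0.02 in the cKO libraries (SD, n = 2). This was a rise of 0.32 (SE 0.03, limma adjusted p = 1.8e-10) without overlap. Its pseudogene Rab7-ps1, which could take or lend reads, had a log2 level of 1.92 to 2.90. The other 4 did not pass, so 20% of the group rose, near the 19.5% of all tested genes called higher. Rab9, which returns receptors from late endosomes to the Golgi, had a difference of -0.12 and Rab29, a partner of LRRK2, of 0.14. Rab24 had 0.35, with 62.4% of its exon bases shared with Prelid1, and Rab7b -0.55 at a log2 level between 2.02 and 3.15.

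Of 9 tested RAB genes of granules, regulated secretion and lysosome-related organelles, 5 rose (55.6%) and 1 fell (11.1%). Of all tested genes 19.5% were called higher and 17.8% lower. With equal library sums 4 of the 9 rose and 2 fell, where 13.7% of all genes were higher and 26.1% lower. Rab27a and Rab27b, which dock secretory granules, rose by 0.43 each (limma adjusted p = 0.0030 and 5.6e-06). Rab27a went from 7.70 and 7.84 in WT to 8.06 and 8.35 in cKO, and lost its call without cKO replicate 2 (adjusted p = 0.054). Rab27b went from 9.43 and 9.35 to 9.86 and 9.77. Rab3d, a RAB of secretory granules, rose by 0.33, and Rab44, a large RAB with EF-hand calcium-binding motifs, by 0.19, a call lost with quantile normalization and equal sums. Rab32 and Rab38, related RABs of lysosome-related organelles such as melanosomes, differed in direction, and are set side by side after their values were seen. Rab32 read 10.10 and 10.08 in WT against 10.54 and 10.42 in cKO (log2 fold change 0.39, SE 0.05, limma adjusted p = 1.5e-06). Rab38 read 8.64 and 8.57 in WT against 8.23 and 8.11 in cKO, 1.36-fold lower (log2 fold change -0.44, SE 0.09, limma adjusted p = 3.9e-04). Rab38 lay 2.31 log2 units below Rab32 in both cKO libraries, a gap on average 0.83 wider than in WT. Rab37, Rab26 and Rab3a had differences from -0.69 to -0.15 and did not pass, and Rab3b and Rab3c lay below the filter.

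Levels of cell type markers also differed between the groups, and they are given here because several granule RAB genes are known from these cells. Over all tested genes 19.5% were higher and 17.8% lower, the shares to set beside the counts below. Of 24 mature neutrophil markers listed, 12 had a row, and of these 10 were higher and 1 lower in cKO. Their summed level was 524 and 558 ppm in WT and 1378 and 1385 ppm in cKO. Of 16 monocyte and macrophage markers listed, 5 had no row. Of 9 tested, 5 were higher and 1 lower (6662 and 6774 ppm in WT, 10594 and 10628 ppm in cKO). Lyz2 read 13.61 and 13.61 in WT against 15.87 and 15.85 in cKO, and Adgre1 lay between 15.81 and 15.93 in all 4 libraries. At these levels Adgre1 made up most of the WT sum, and Lyz2 alone made up most of the rise of the sum. Mrc1 and Ms4a7 were among the lowest of this list, each under 1.2. Of 15 tested megakaryocyte and platelet markers, a list that itself holds Rab27b, 4 were higher (26.7%) and 5 lower (33.3%). The sums of this list were 3259 and 3271 ppm in WT and 2650 and 2674 ppm in cKO. In that list F2r was the highest, at 13.69 to 14.47, and Treml1 and Gp6 the lowest, at -1.17 to 1.04. Of 15 erythroid markers listed 11 had no row, and 3 of the other 4 were lower (summed 189 to 197 against 132 to 141). Of 13 basophil and mast cell markers 6 had no row, and of 6 tested 1 was higher and 2 lower (369 to 375 against 304 to 313). Of 20 B, T and NK cell markers 15 had no row, and of 5 tested 1 was higher and 3 lower (178 to 181 against 88.6 to 91.1). These lists thus rest on few genes. The part of these cell types in the RAB differences was not tested.

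The remaining members were few. Rab23, known from cilia, Rab28 and Rab40c did not pass, with differences of 0.09, -0.14 and -0.03. The limma adjusted p of Rab28 was 0.057, and both of its cKO libraries lay below both WT libraries. Rab40b lay below the filter, and Rab26os, the non-coding member, had a difference of -0.29 (SE 0.50) at log2 levels between 1.06 and 1.70.

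Genes that deliver, load and retire RAB proteins had more rises than falls on the main scale, but not all lists did so with equal library sums. Of 17 genes for RAB delivery (GDI, prenylation and membrane carriers), 8 rose (47.1%) and 3 fell (17.6%), with a median of 0.14. Over all tested genes 19.5% were higher and 17.8% lower, so the share of falls was near that of all genes. With equal sums 6 rose and 5 fell, where 13.7% of all genes were higher and 26.1% lower. Arl6ip5 and Rabac1, prenylated RAB acceptor family members, rose by 0.81 (SE 0.04) and 0.50 (SE 0.05). In contrast Chm, the escort protein that presents new RAB proteins for prenylation, read 7.33 and 7.15 in WT against 6.23 and 6.00 in cKO, 2.18-fold lower (log2 fold change -1.13, SE 0.17, limma adjusted p = 5.3e-06). Rabggtb, a subunit of the RAB prenylating enzyme, had -0.25 (limma adjusted p = 0.0070), whereas Rabggta and Gdi2 did not pass (-0.03 and -0.04); these 3 are named after their values were seen.

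Of 50 tested exchange factor genes, 15 rose (30%) and 3 fell (6%), with a median of 0.10. Of 37 GAP genes 14 rose (37.8%) and 4 fell (10.8%), with a median of 0.20. Over all tested genes the shares were 19.5% and 17.8%. With equal library sums the exchange factors counted 11 and 12 and the GAP genes 8 and 7, where 13.7% of all genes were higher and 26.1% lower. Trappc4 and Trappc3, core subunits of the TRAPP complexes that activate RAB1, rose by 0.55 (SE 0.04) and 0.53 (SE 0.04), Dennd1c by 0.64 (SE 0.05) and Flcn, the gene of folliculin, by 0.60 (SE 0.06). Among the GAP genes Tbc1d20, whose product acts on RAB1, rose by 1.06 (SE 0.09), Tbc1d10b by 0.94 (SE 0.08), Tbck by 0.67 (SE 0.04) and Tbc1d15, which acts on RAB7, by 0.62 (SE 0.04). Of 76 tested effector genes 19 rose and 13 fell (median 0.05), shares of 25% and 17.1%, near those of all genes, and with equal sums 11 rose and 20 fell. The mitotic kinesin gene Kif20a had a log2 fold change of -1.27 (SE 0.09). Ppm1h, a phosphatase of RAB proteins, rose by 0.54 (SE 0.05), Pik3c3 by 0.43 (SE 0.06) and Mical1 by 0.41 (SE 0.06). Of 6 RAB-like genes, Ift22 and Rabl2 rose by 0.74 and 0.40 and Rabl3 had -0.70.

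Both other small GTPase lists described here had more rises than falls, under equal library sums too. Of 26 ARF, ARL and SAR genes 13 rose (50%) and 3 fell (11.5%), against 19.5% and 17.8% of all tested genes. Their median was 0.24, and 8 rose and 4 fell with equal sums. Arf4, Sar1b, Trim23 and Arl8b were up by 0.34 to 0.69. The 3 falls, named after their values were seen, were Arf1 (-0.12), Sar1a (-0.17) and Arl6 (-0.40). The summed level of the list was 2225 and 2200 ppm in WT and 2240 and 2227 ppm in cKO. Of 24 RAS, RAL and RAP genes 9 rose and 2 fell (median -0.05; 9 and 3 with equal sums), with Nras, Rala, Rit1 and Rheb up by 0.56 to 0.87. No difference between these families and the RAB genes was tested.

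**Figure D5:**
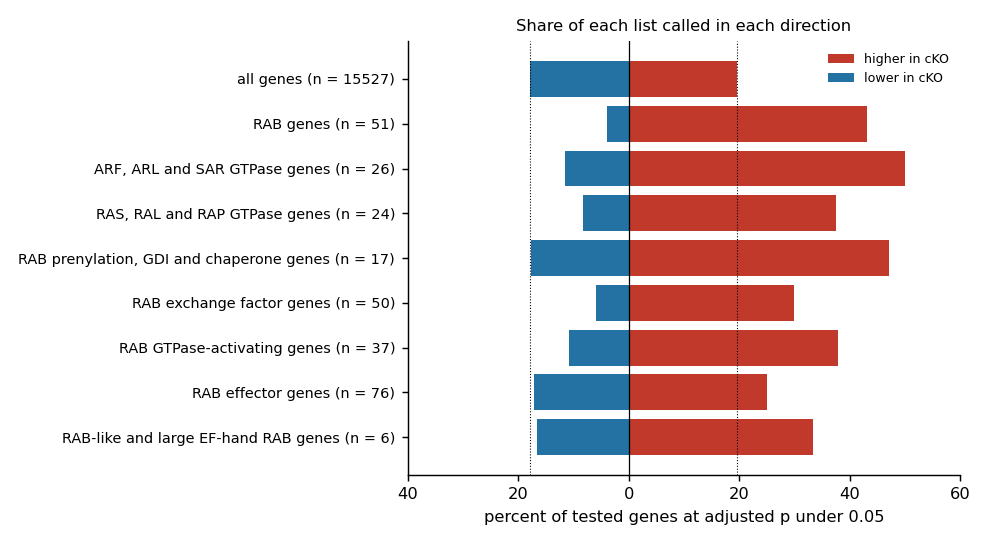
Percent of tested genes called higher (red, right) and lower (blue, left) in cKO at a limma adjusted p under 0.05 (x axis) for all genes, the RAB genes and 7 related lists (y axis, with the number tested). The red bar of the RAB genes reaches 43.1% and the blue bar 3.92%, against 19.5% and 17.8% for all genes (dotted lines); with equal library sums the RAB counts are 13 higher and 5 lower.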

How the data were processed

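RNA-seq of 2 WT and 2 Ybx1 cKO libraries was used. The authors deposited 1 score per gene symbol and library, as logarithms whose base and transformation the sources used here do not give. The submitters' processing notes name GRCm38, HISAT2 2.1.0, CASAVA, DESeq2 and featureCounts without saying how each served. Per the labels' protocols, polyadenylated RNA was selected before library construction. Whether counting used strand is unknown, so reads of overlapping genes may not be told apart.

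Scores were multiplied by 0.693 (the natural logarithm of 2). On that reading, the replicate noise was a median 1.10 times (WT) and 1.31 times (cKO) Poisson noise, against 4.85 and 5.94 times if plain log2. The comparison treats the back-transformed values as read counts, which the sources do not state, so it cannot settle the scale. A gene entered the test when 2 or more libraries had a score of 1 or more, and the fit used limma 3.58.1 in R 4.3.3 (lmFit, eBayes with a mean-variance trend, 2 residual degrees of freedom), two-sided. The script was tested on simulated data. Exon lengths and positions came from GENCODE M21, which matched all 56 members, and upstream sequences from RefSeq (GRCm38.p6). Tables and plots were made in Python 3.11.15 with matplotlib 3.10.9, numpy 2.4.6 and pandas 2.3.3. Each value column was tied to its sample through the title, with 0 unmatched.

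The members, role groups and lists were chosen with earlier results of these data known. All members are named; full values are given for called members whose log2 fold change reached 0.5 in size and their paralogs, and up to 4 called genes with the smallest p-values per related list, apart from some genes and 1 list that are not reported here. Alternatives covered filters, prior variance, scaling, thresholds, the reading of the scores, the replicate block and leaving out each library.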

Additional observations from a re-analysis of the deposited data

How the results depend on the processing

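Scaling to equal library sums was the 1 alternative added late, once the data had been seen. The 22 rises and 2 falls among RAB genes became 13 and 5 with equal library sums, where Rab6a (-0.023) and Rab11b (-0.0078) changed sign and all-gene calls were split 2132 higher to 4047 lower, against 3035 to 2768. Without a filter 13 rose. With the variance trend switched off, 4 rose (Rab1a, Rab5b, Rab5c and Rab11a) and 0 fell by limma, with 15 higher and 3 lower at an unadjusted p under 0.05; the total over all genes was 2267 and that of the related lists 41. Falls numbered 4 with a score of at least 5 and with a threshold of 0.10, and 1 with a median shift. The median RAB change of 0.19 was 0.16 with quantile normalization, 0.25 with a median shift, 0.068 with equal sums and 0.28 if scores are plain log2. Leaving out each library in turn gave a median from 0.16 to 0.26. Each such fit left 1 library in 1 of the groups, so its SEs leaned on the variance trend over all genes. A call that held in these fits is therefore no support apart from that trend. The replicate block, for numbers that pair nothing in the labels (correlation of same-numbered deviations 0.013 across genes), gave 22 rises and 2 falls. Unknown depth limits the genes of low level, where SEs were largest.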
